A study of Homo sapiens with 12 samples.

Results

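The genes described here are the 6 TspanC8 tetraspanins (TSPAN5, TSPAN10, TSPAN14, TSPAN15, TSPAN17 and TSPAN33) and the 2 sheddases ADAM10 and ADAM17. They were taken by symbol from a table of 35587 gene symbols in 12 libraries, and all 8 were found. 7 of them were among the 13299 genes tested (those reaching 1 TPM in 2 or more libraries), and TSPAN10 lay below that filter. The libraries are polyadenylated RNA of TeloHAEC, human endothelial cells of the aorta that carry telomerase and grow indefinitely, and every library of a comparison came from cells at a matched passage. 3 lines were compared: control cells (NT, genotype label wild type), cells given Cas9 and a guide against TSPAN14 (TKO) and cells given Cas9 and a guide against NOTCH1 (NKO). Each line was plated on a coating made at 2.5 mg/mL from control IgG or from the Notch ligand Delta-like 4 (DLL4), and RNA was taken after 24 hours. Each of the 6 groups had 2 libraries. Each edit is represented by 1 line, and the sources used here do not say whether a line is a clone or a pool, so an effect of the edit and any other difference between lines cannot be told apart.

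Tetraspanins are small proteins that cross the membrane several times and organise partner proteins in it. The TspanC8 members, named for the cysteines of their large extracellular loop, bind ADAM10, let it leave the endoplasmic reticulum and direct it to substrates. ADAM10 is the metalloprotease that cleaves a Notch receptor once a ligand has pulled on it, after which gamma-secretase frees the intracellular domain. In other cell types TSPAN5 and TSPAN14 have been tied to cleavage of Notch, and TSPAN15 and TSPAN33 to other ADAM10 partners, among them N-cadherin for TSPAN15 and the junction protein PLEKHA7 for TSPAN33. ADAM17, the related sheddase of TNF and of EGF receptor ligands, is escorted by the iRhom proteins instead of the TspanC8 group. The question put to these genes was whether other TspanC8 members or the proteases were higher where TSPAN14 had been targeted.

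Values are TPM, transcript abundance per length and per library total, so that levels of different genes can be set side by side. TPM keep no read numbers, and the depth of a library is unknown. Differences between groups are differences of log2(TPM + 1), each with its standard error, from limma with Benjamini-Hochberg adjustment over all genes tested and a threshold of 0.05. Such differences understate the change of genes at low levels. Beyond the word biological replicate the labels do not say how the 2 libraries of a group were separated. The p-values rest on the spread between such libraries, pooled over the 6 groups. An exact permutation test of 2 libraries against 2 cannot give a two-sided p below 0.333. Libraries are named by coating and by the number of their column, which is 2 or 3 for NT and TKO and 1 or 2 for NKO. Pearson's r between libraries across genes was 0.987 to 0.992 within a group and 0.937 to 0.989 between groups. All 12 endothelial markers checked averaged at least 1 TPM in each line, with a sum of 2469 to 2875 TPM in NT, 2541 to 2870 in TKO and 2424 to 2788 in NKO libraries. The 5 epithelial markers summed to at most 1.04 TPM in any library. The 5 leukocyte markers summed to 0.380 to 1.22 TPM in NT, 3.001 to 10.4 in TKO and 0.584 to 1.86 in NKO libraries. Of these 5 markers, 1 averaged at least 1 TPM in TKO cells and none did in NT or NKO cells. Mesenchymal and smooth muscle markers (8) summed to 17.4 to 26.3 TPM in NT, 22.1 to 33.2 in TKO and 12.2 to 17.2 in NKO. The 3 neural markers summed to 4.51 to 6.75 TPM in NT, 1.62 to 3.18 in TKO and 5.40 to 7.67 in NKO libraries. The pseudogene entry KPNA2P2 took 0.280% to 5.61% of a library, the most in TKO IgG 3.

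The genes lie on 7 chromosomes in GENCODE 29 (GRCh38). TSPAN14 (chromosome 10, 80454166 to 80533123) and TSPAN15 (chromosome 10, 69451473 to 69507669) share one, both on the plus strand with starts 11.003 Mb apart. TSPAN33 is at 7:129144892-129169697 and TSPAN17 at 5:176647387-176659054, both on the plus strand, and TSPAN5 at 4:98470367-98658629 on the minus strand. TSPAN10 is at 17:81637171-81648749 on the plus strand, ADAM10 at 15:58588807-58749978 and ADAM17 at 2:9488486-9556732, both on the minus strand. TSPAN10 overlaps NPLOC4 and ADAM17 overlaps IAH1 on the opposite strand, and the sources used here do not say whether strand was used in quantification.

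The sequences shown are those before the start of TSPAN15 and TSPAN33, the untargeted TspanC8 genes that were lower in both edited lines. They are the 250 bases upstream of the RefSeq start (GRCh38.p14, plus strand, 5′ to 3′), at chr10:69451215-69451464 for TSPAN15 and chr7:129144457-129144706 for TSPAN33, with the GC box GGGCGG in capitals on either strand.
TSPAN15: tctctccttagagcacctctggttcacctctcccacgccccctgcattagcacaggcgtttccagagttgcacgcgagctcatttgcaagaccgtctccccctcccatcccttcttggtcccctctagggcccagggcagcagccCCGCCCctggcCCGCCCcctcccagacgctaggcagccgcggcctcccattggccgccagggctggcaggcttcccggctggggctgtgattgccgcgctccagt
TSPAN33: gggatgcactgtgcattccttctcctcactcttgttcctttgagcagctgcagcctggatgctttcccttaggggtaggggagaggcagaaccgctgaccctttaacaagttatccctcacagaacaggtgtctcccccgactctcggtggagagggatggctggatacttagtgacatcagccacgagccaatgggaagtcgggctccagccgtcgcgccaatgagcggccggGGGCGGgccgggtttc
The TSPAN15 stretch held 2 GC boxes and 67.6% G or C, and the TSPAN33 stretch 1 GC box and 59.6%. In windows from 250 bases before to 50 after the start, which RefSeq gave for all 8 genes (3 starts for TSPAN14), 5 motifs were searched on both strands. GGGCGG was in at least 1 window of every gene but TSPAN10, and in 45.0% of 35116 such windows of all genes. The RBPJ motif, named for the DNA-binding partner of Notch, was searched only as GTGGGAA. That form was in no window of the 8 genes and in 6.25% of all, and variant forms were not searched. The E-box CACGTG was in the ADAM10 window alone (7.26% of all), and the ETS core CCGGAAGT (4.14%) and TATAAA (11.5%) were in none. A match of letters is a description and not a binding site.

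TSPAN14, the targeted gene, was the most abundant TspanC8 mRNA of NT cells on IgG and was still transcribed in TKO cells. On IgG the NT libraries had 189 and 218 TPM, the TKO libraries 127 and 148 and the NKO libraries 201 and 179. On DLL4 the NT libraries had 186 and 172 TPM, the TKO libraries 113 and 109 and the NKO libraries 174 and 177. Every TKO library was below every NT and NKO library. TKO cells thus held 67.3% of the NT mean on IgG and 62.3% on DLL4. The difference of log2(TPM + 1) was -0.57 ± 0.10 on IgG (limma adjusted p = 0.0015), -0.68 ± 0.10 on DLL4 (adjusted p = 0.00039) and -0.62 ± 0.07 averaged over both coatings (adjusted p = 3.5e-05). An edit can end protein production with the mRNA still present, and no protein was measured here. In bulk RNA a lower level in every cell and loss from some of the cells cannot be told apart.

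**Figure D1:**
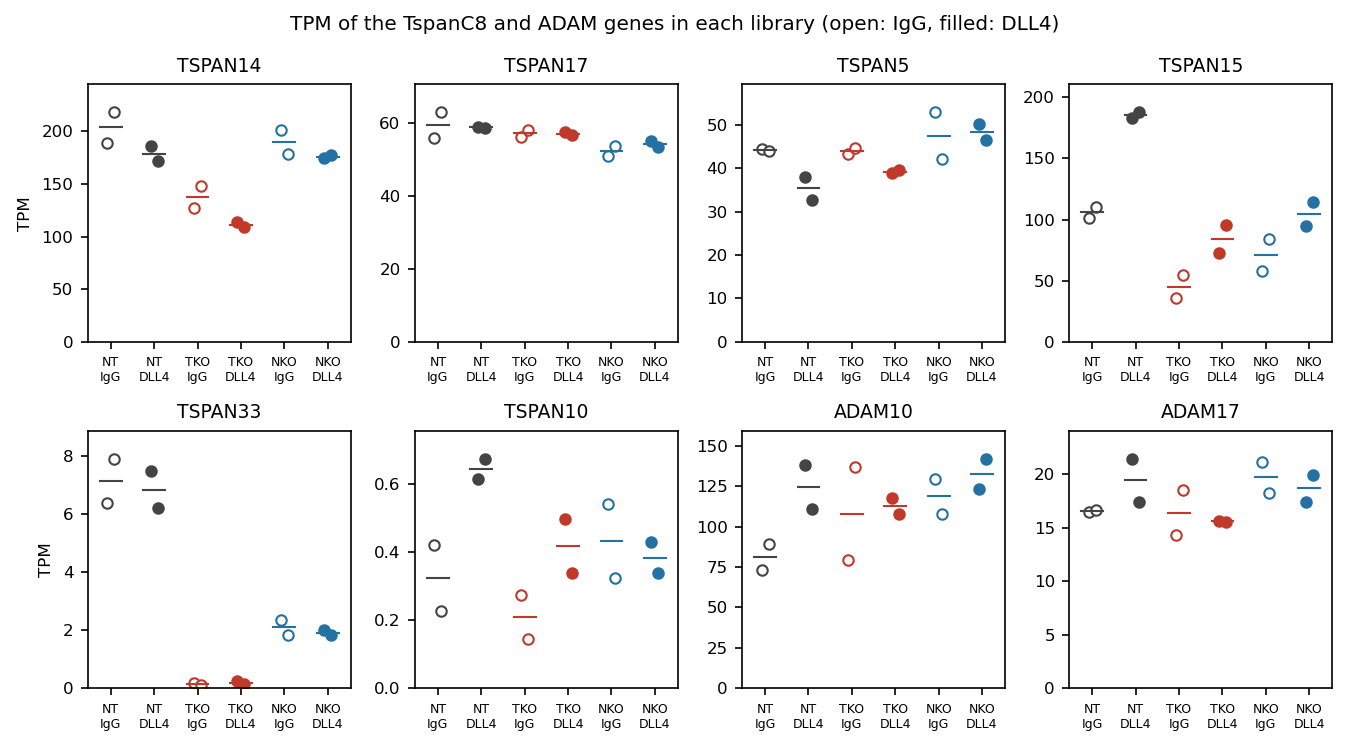
TPM of the 8 genes in each of the 12 libraries. Each point is a library (open for IgG, filled for DLL4), each bar the mean of the 2 libraries of a group, and each panel has its own linear scale from 0. TSPAN14, TSPAN15 and TSPAN33 sit lower in all 4 TKO libraries than in all 4 NT libraries, with TSPAN33 at 0.116 to 0.243 TPM in TKO cells.

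Of the 7 genes tested, none was higher and 3 (TSPAN14, TSPAN15 and TSPAN33) were lower in TKO than in NT cells, and the same 3 were called on IgG, on DLL4 and averaged over both. Calls were common among all genes in these comparisons, at 27.6% of the genes tested on IgG, 26.6% on DLL4 and 37.3% averaged, where 21.2% were higher and 16.0% lower. Of the averages, 3 of 7 is therefore near the share of all genes. That no increase was called does not show that none occurred, and the intervals are given below. The targeted gene itself is 1 of the 3.

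TSPAN17 and TSPAN5, the TspanC8 genes closest to TSPAN14 in sequence, did not pass the test in TKO cells. TSPAN17 stood at 56.0 and 63.0 TPM on IgG and 59.0 and 58.7 on DLL4 in NT cells, 56.3 and 58.1 in TKO cells on IgG and 57.5 and 56.6 on DLL4. Its 4 TKO libraries lay inside the range of the 4 NT libraries, though both were below both NT libraries on DLL4 (-0.04), and the averaged difference was -0.05 ± 0.06 with a 95% interval of -0.17 to 0.08 (limma adjusted p = 0.55). TSPAN5 stood at 44.4 and 44.0 TPM on IgG and 38.0 and 32.6 on DLL4 in NT cells, 43.3 and 44.7 in TKO cells on IgG and 38.8 and 39.6 on DLL4. Its averaged difference was 0.07 ± 0.08, with an interval of -0.11 to 0.25 (limma adjusted p = 0.53). On DLL4 both TKO libraries were above both NT libraries for TSPAN5, with a difference of 0.15 ± 0.11 and an interval of -0.10 to 0.40 (limma adjusted p = 0.39).

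TSPAN15, the TspanC8 gene second to TSPAN14 in NT cells on IgG, fell in TKO cells on both coatings. NT cells had 101.4 and 110.2 TPM on IgG and 183 and 188 on DLL4. TKO cells had 36.0 and 54.3 TPM on IgG and 72.7 and 95.5 on DLL4, so the highest TKO library on DLL4 lay below the lowest NT library on IgG. The TKO mean was 42.7% of the NT mean on IgG and 45.4% on DLL4. The difference was -1.24 ± 0.21 on IgG (limma adjusted p = 0.0013), -1.14 ± 0.21 on DLL4 (adjusted p = 0.0019) and -1.19 ± 0.15 averaged (adjusted p = 8.1e-05).

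TSPAN33, known from erythroid cells and activated B cells, was a minor TspanC8 mRNA in NT cells and nearly absent from TKO cells. NT cells had 6.37 and 7.91 TPM on IgG and 7.47 and 6.21 on DLL4, against 0.193 and 0.116 in TKO cells on IgG and 0.243 and 0.154 on DLL4. The ratio of the means was 46.2-fold on IgG and 34.4-fold on DLL4, lower in TKO cells. Ratios against levels this low are imprecise at an unknown depth, and on the log2 scale the averaged difference of TSPAN33 was -2.76 ± 0.13 (limma adjusted p = 3.2e-08) with a pseudocount of 1 and -4.69 with one of 0.1. On IgG the difference was -2.81 ± 0.18 (limma adjusted p = 1.1e-06), and on DLL4 it was -2.71 ± 0.18 (adjusted p = 1.2e-06). Of the 4 erythroid and platelet markers checked, none averaged 1 TPM in any line, and their sum was 0.405 to 0.775 TPM in NT and 0.0480 to 0.428 in TKO libraries, and a part of other cells in the TSPAN33 level was not tested. The calls of TSPAN14 and TSPAN15 in TKO against NT, on each coating and averaged, held under every setting and left-out library tried. Those of TSPAN33 held wherever it was tested, which a filter at a mean of 5 TPM did not allow.

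TSPAN10, a TspanC8 gene best known from pigmented and eye tissue, was at 0.145 to 0.674 TPM in all 12 libraries and was not tested. NT cells had 0.421 and 0.226 TPM on IgG and 0.614 and 0.674 on DLL4, and TKO cells had 0.273 and 0.145 on IgG and 0.497 and 0.339 on DLL4. The TKO and NT libraries overlapped on IgG and did not on DLL4, where the TKO values were the lower.

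Summed over the 6 genes, TspanC8 mRNA was lower in TKO and in NKO cells than in NT cells. The sum was 398 and 444 TPM on IgG and 474 and 458 on DLL4 in NT cells, 263 and 305 in TKO cells on IgG and 283 and 301 on DLL4. Every TKO sum was below every NT sum, and the TKO mean over both coatings was 65.0% of the NT mean. Without TSPAN14 the order was the same on each coating, at 209 and 225 TPM against 136 and 157 on IgG, and 288 and 286 against 170 and 192 on DLL4. Of the deficit of 137 TPM on IgG, TSPAN14 made up 48.6%, TSPAN15 44.3% and TSPAN33 5.10%. Of the deficit of 173 TPM on DLL4, TSPAN15 made up 58.4% and TSPAN14 38.9%, the larger part from a gene that had not been targeted. In NKO cells the sum was 366 and 360 TPM on IgG and 376 and 394 on DLL4, every value below every NT sum. Without TSPAN14 it was 165 and 182 TPM on IgG and 202 and 216 on DLL4, also below NT on each coating. TSPAN15 made up 60.4% of the NKO deficit on IgG and 100% on DLL4, and TSPAN14 24.2% and 3.79%. The mean of TSPAN5 was higher on both coatings. The lower sum outside TSPAN14 was thus shared by the line in which TSPAN14 was not targeted. No test was run on these sums.

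**Figure D2:**
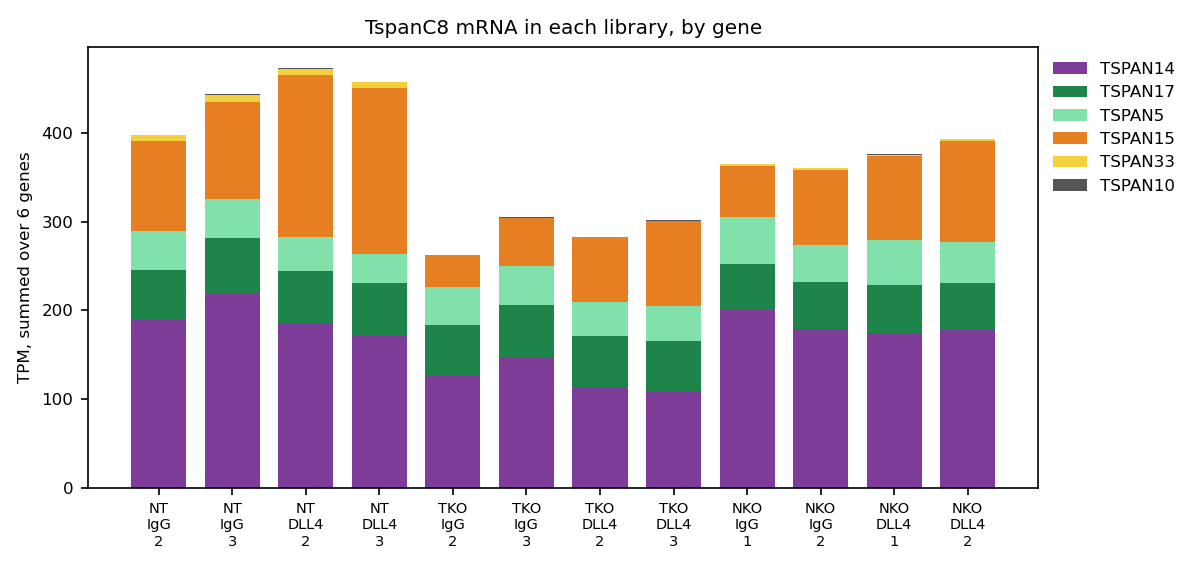
TPM of the 6 TspanC8 genes stacked for each library, named by line, coating and column number. The stacks reach 398 to 474 TPM in NT, 263 to 305 in TKO and 360.4 to 394 in NKO libraries, and the layers of TSPAN14 and TSPAN15 are the ones that differ most in height between NT and TKO.

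Because both TSPAN14 and the sum fell, the share of TSPAN14 in TspanC8 mRNA was much the same in NT and TKO cells. It was 47.6% and 49.2% in NT and 48.2% and 48.4% in TKO cells on IgG, and 39.2% and 37.5% in NT and 40.1% and 36.2% in TKO cells on DLL4. The share of TSPAN15 was 25.5% and 24.8% in NT against 13.7% and 17.8% in TKO cells on IgG, and 38.6% and 41.0% against 25.7% and 31.7% on DLL4. The share of TSPAN17 was 14.1% and 14.2% against 21.4% and 19.1% on IgG, while its own TPM did not pass the test. In NKO cells TSPAN14 had a share of 55.0% and 49.5% on IgG and 46.3% and 45.1% on DLL4, above NT on each coating. TSPAN15 had 15.8% and 23.3% on IgG and 25.2% and 29.1% on DLL4 in NKO cells, below NT on each coating.

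ADAM10, the partner of all these tetraspanins, did not pass the test in TKO cells. NT cells had 72.9 and 89.5 TPM on IgG and 138 and 111 on DLL4. TKO cells had 79.2 and 137 TPM on IgG and 118 and 108 on DLL4, so the 2 TKO libraries on IgG lay far apart and all 4 TKO values were within the NT range. The averaged difference was 0.11 ± 0.15, with an interval of -0.22 to 0.45 (limma adjusted p = 0.60). On IgG it was 0.36 ± 0.22 with an interval of -0.12 to 0.84 (limma adjusted p = 0.25), and it became a call when ADAM10 was fitted without TKO IgG 2 (0.75, adjusted p = 0.011), which left TKO IgG 3 as the sole TKO library on IgG. ADAM17 was at 16.4 and 16.6 TPM on IgG and 21.5 and 17.4 on DLL4 in NT cells, 14.3 and 18.5 in TKO cells on IgG and 15.7 and 15.5 on DLL4. Its averaged difference was -0.16 ± 0.10, with an interval of -0.38 to 0.07 (limma adjusted p = 0.26). On DLL4 both TKO libraries were below both NT libraries for ADAM17 (-0.29 ± 0.14, interval -0.61 to 0.02, limma adjusted p = 0.17). With quantile normalisation the averaged difference of ADAM17 was -0.23 and passed (limma adjusted p = 0.035).

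The sum of TspanC8 TPM per ADAM10 TPM was 5.45 and 4.95 on IgG and 3.43 and 4.14 on DLL4 in NT cells. It was 3.32 and 2.23 in TKO cells on IgG and 2.41 and 2.79 on DLL4, below the NT libraries of the same coating. In NKO cells it was 2.82 and 3.34 on IgG and 3.06 and 2.77 on DLL4, also below the NT libraries of the same coating. The ratio moves with ADAM10 as well as with the sum. On IgG the mean of ADAM10 was 133% of NT in TKO and 146% in NKO cells, neither called (limma adjusted p = 0.25 and 0.14). On DLL4 it was 90.7% in TKO and 107% in NKO cells, again not called. The ratio itself was not tested.

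The NKO line was compared with the same NT libraries, so the 2 line comparisons are not independent. TSPAN14 in NKO cells differed from NT by -0.10 on IgG, by -0.02 on DLL4 and by -0.06 ± 0.07 averaged (limma adjusted p = 0.54). TSPAN33 was lower in NKO cells too, at 2.36 and 1.84 TPM on IgG and 2.00 and 1.83 on DLL4. Its values lay between those of NT and TKO cells without overlap, and the averaged difference from NT was -1.41 ± 0.13 (limma adjusted p = 1.6e-05). TSPAN15 was at 57.8 and 84.0 TPM on IgG and 94.6 and 114 on DLL4 in NKO cells, below the NT libraries of the same coating. Its averaged difference was -0.71 ± 0.15 (limma adjusted p = 0.0050). On DLL4 alone TSPAN15 differed by -0.83 ± 0.21 (limma adjusted p = 0.018), a call lost without NKO DLL4 1 (adjusted p = 0.12), NT DLL4 2 (0.071) or NT DLL4 3 (0.092) and with no filter (0.083). On IgG it was -0.59 ± 0.21 (adjusted p = 0.10), and 0.040 without NKO IgG 2.

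TSPAN5 was the 1 gene of the group called higher in an edited line. NKO cells had 52.9 and 42.0 TPM on IgG and 50.1 and 46.4 on DLL4, against 44.4 and 44.0 and 38.0 and 32.6 in NT cells, so the libraries were separate on DLL4 and not on IgG. The difference was 0.44 ± 0.11 on DLL4 (limma adjusted p = 0.019), 0.09 ± 0.11 on IgG (adjusted p = 0.65) and 0.27 ± 0.08 averaged (adjusted p = 0.031). The averaged TSPAN5 call was lost without NT IgG 2 (adjusted p = 0.070), NT IgG 3 (0.078), NT DLL4 3 (0.12), NKO IgG 1 (0.095) or NKO DLL4 1 (0.099), with no filter (0.071), with no variance trend (0.051) and in a fit of the libraries compared alone (0.064). The TSPAN5 call on DLL4 was lost without NT DLL4 3 (limma adjusted p = 0.15) or NKO DLL4 1 (0.12), with no filter (0.05003) and in a fit of the libraries compared alone (0.059). In the control cells TSPAN5 itself stood lower on DLL4 than on IgG, as given below. TSPAN17 was at 51.0 and 53.6 TPM on IgG and 55.0 and 53.4 on DLL4 in NKO cells, with an averaged difference of -0.15 ± 0.06 (limma adjusted p = 0.072). That of TSPAN17 passed with median-of-ratios rescaling (-0.22, adjusted p = 0.028), with quantile normalisation (-0.19, 0.029) and without NT IgG 2 (-0.19, 0.042). ADAM10 was at 129.5 and 108 TPM on IgG and 123 and 142 on DLL4 in NKO cells (0.32 ± 0.15, limma adjusted p = 0.15). ADAM17 was at 21.2 and 18.3 TPM on IgG and 17.4 and 20.0 on DLL4 (0.09 ± 0.10, limma adjusted p = 0.53). TSPAN10 was at 0.541 and 0.323 TPM on IgG and 0.429 and 0.338 on DLL4.

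In NKO against NT cells 1 of the 7 genes was called on IgG (TSPAN33), where 10.7% of all genes tested were called. On DLL4 it was 3 of 7, where 20.7% were called, and averaged over both coatings also 3 of 7 (TSPAN33 and TSPAN15 lower, TSPAN5 higher), where 27.7% were.

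**Figure D3:**
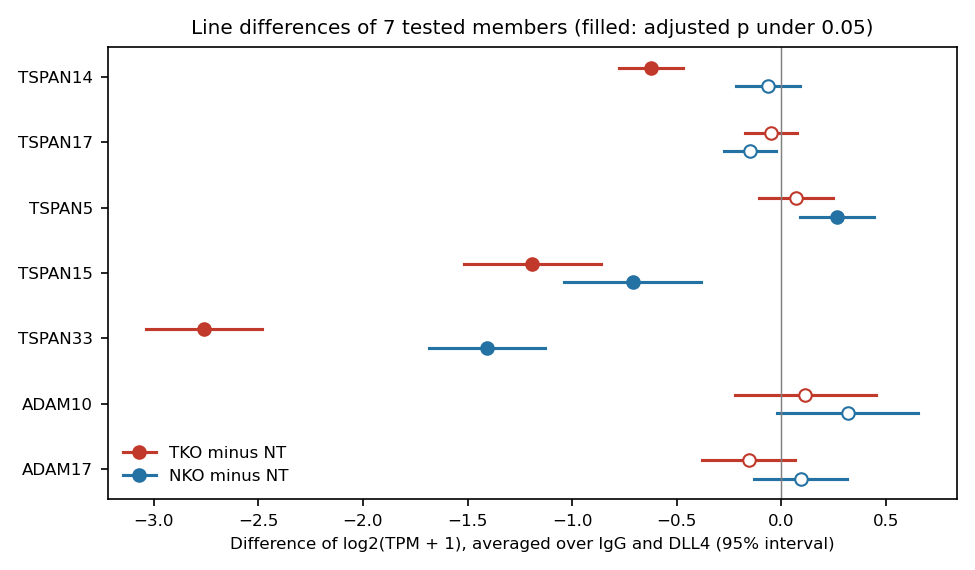
Difference of log2(TPM + 1) from NT cells, averaged over both coatings, for the 7 tested genes in TKO (red) and NKO (blue) cells. Bars are 95% intervals of the limma fit and filled points have an adjusted p under 0.05. TSPAN33 lies farthest from 0 in both lines (-2.76 and -1.41), followed by TSPAN15 (-1.19 and -0.71), while TSPAN14 is called in TKO (-0.62) and not in NKO cells (-0.06).

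Set directly against NKO, TKO cells were lower in TSPAN14 (-0.56 ± 0.07, limma adjusted p = 0.00011), TSPAN33 (-1.35 ± 0.13, adjusted p = 1.4e-05) and TSPAN15 (-0.48 ± 0.15, adjusted p = 0.027). That is 3 of 7 genes, all lower, where 35.2% of all genes were called. The TSPAN15 call was lost without TKO IgG 2 (adjusted p = 0.093), TKO DLL4 2 (0.11), NKO IgG 2 (0.095) or NKO DLL4 2 (0.089), with no filter (0.11), with median-of-ratios rescaling (0.051), with no variance trend (0.052) and in a fit of the libraries compared alone (0.074). TSPAN5 (-0.20 ± 0.08, limma adjusted p = 0.082) and ADAM17 (-0.25 ± 0.10, adjusted p = 0.078) did not pass, and did so with quantile normalisation (0.018 and 0.022). TSPAN5 passed also without NKO IgG 2 (0.014). ADAM17 passed without TKO IgG 3 (0.028). ADAM10 (-0.20 ± 0.15, limma adjusted p = 0.34) passed without TKO IgG 3 (-0.40, adjusted p = 0.021).

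The DLL4 coating raised 1 of the 7 genes in NT cells, TSPAN15, where 16.0% of all genes tested were called (7.68% higher and 8.34% lower). Its mean went from 106 ± 6.21 (SD, n = 2) to 185 ± 3.69 TPM, a difference of 0.80 ± 0.21 (limma adjusted p = 0.026). The libraries of the 2 coatings did not overlap. The call was lost without any 1 of the 4 NT libraries (limma adjusted p of TSPAN15 0.12, 0.092, 0.0996 and 0.11 without IgG 2, IgG 3, DLL4 2 and DLL4 3), with no filter (0.11) and with no variance trend (0.054). In TKO cells, where 6.51% of all genes were called, TSPAN15 again was the 1 gene of 7 called, from 45.1 ± 12.9 to 84.1 ± 16.1 TPM (0.90 ± 0.21, limma adjusted p = 0.029). That call was lost without TKO IgG 2 (0.15), TKO DLL4 2 (0.051) or TKO DLL4 3 (0.22), in a fit of the TKO libraries alone (0.18), with no filter (0.13) and with no variance trend (0.063). In NKO cells, where 0.782% of all genes were called, none of the 7 was, and 1 (TSPAN15, from 70.9 ± 18.6 to 104.5 ± 13.99 TPM, 0.57 ± 0.21, limma adjusted p = 0.38) had an unadjusted p under 0.05. TSPAN15 stood higher on DLL4 than on IgG in every library of each line, with ratios of the means of 1.75 for NT, 1.86 for TKO and 1.47 for NKO.

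In NT cells TSPAN5 was lower on DLL4 (-0.32 ± 0.11, limma adjusted p = 0.082). It passed with median-of-ratios rescaling (-0.34, 0.021) and with quantile normalisation (-0.31, 0.037). ADAM10 in NT cells had a difference of 0.61 ± 0.22 (limma adjusted p = 0.083), with both DLL4 libraries above both IgG libraries, and passed under no setting tried. TSPAN14 was at 87.8% of its IgG mean on DLL4 in NT cells (-0.18 ± 0.10, limma adjusted p = 0.24) and at 81.2% in TKO cells (-0.29 ± 0.10, adjusted p = 0.11), which passed with quantile normalisation (-0.33, 0.048). TSPAN33 (-0.05 ± 0.18, limma adjusted p = 0.89), TSPAN17 (-0.01 ± 0.08, adjusted p = 0.94) and ADAM17 (0.21 ± 0.14, adjusted p = 0.36) did not pass in NT cells.

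The test of the difference between responses called none of the 7 genes, either for TKO against NT, where 0.526% of all genes were called, or for NKO against NT, where 0.887% were. None of the 7 had an unadjusted p under 0.05 in either limma test. The response of TSPAN15 differed by 0.09 ± 0.30 in TKO cells (interval -0.56 to 0.75, limma adjusted p = 0.92) and by -0.23 ± 0.30 in NKO cells (-0.89 to 0.42, adjusted p = 0.81). That of ADAM10 differed by -0.49 ± 0.31 in TKO cells (-1.17 to 0.18, limma adjusted p = 0.48) and by -0.45 ± 0.31 in NKO cells (-1.12 to 0.23, adjusted p = 0.59). The intervals of both genes are wide and do not show that the lines responded alike.

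The order of the levels changed with line and coating. In NT cells on IgG it ran TSPAN14, TSPAN15, ADAM10, TSPAN17, TSPAN5, ADAM17, TSPAN33 and TSPAN10, and the 2 libraries of each gene were separate from those of the next. On DLL4 TSPAN15 and TSPAN14 stood first with overlapping libraries in NT cells, and the rest of the order was as on IgG. In TKO cells on IgG TSPAN14 and ADAM10 overlapped at the top, TSPAN17 (57.2 ± 1.29 TPM) stood above TSPAN15 (45.1 ± 12.9 TPM) and TSPAN5 (44.0 ± 1.02 TPM), which overlapped, and TSPAN10 and TSPAN33 overlapped at the bottom. In TKO cells on DLL4 ADAM10 (113 ± 6.89 TPM) and TSPAN14 (111 ± 2.98 TPM) overlapped, TSPAN15 came next, and TSPAN33 was the lowest of the 8 genes, below TSPAN10. In NKO cells on both coatings the order was TSPAN14, ADAM10, TSPAN15, TSPAN17, TSPAN5, ADAM17, TSPAN33 and TSPAN10, with TSPAN17 and TSPAN5 overlapping on IgG.

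TSPAN14 and TSPAN15 lie on the same arm of chromosome 10, and the genes around them were looked at for the averaged difference between TKO and NT cells. Of 68 other tested genes that start between the pair, 15 were higher and 14 lower, with a median of 0.01. Of 8 genes within 1 Mb of the start of TSPAN14, 3 were higher and 1 lower (median 0.16), and of 19 within 1 Mb of TSPAN15, 4 were higher and 1 lower (median 0.09). Of 229 genes from TSPAN14 to the end of the chromosome, 34 were higher and 39 lower (median -0.01), and of 491 on the whole chromosome, 75 and 89 (median 0.00). Within 1 Mb of TSPAN33 on chromosome 7, 3 of 29 genes were higher and 3 lower (median 0.03). Of all 13189 genes placed 2807 were higher and 2113 lower (median 0.03), and of all genes tested 21.2% were higher and 16.0% lower. None of these regional medians was lower than -0.01, and a change of a region was not tested.

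**Figure D4:**
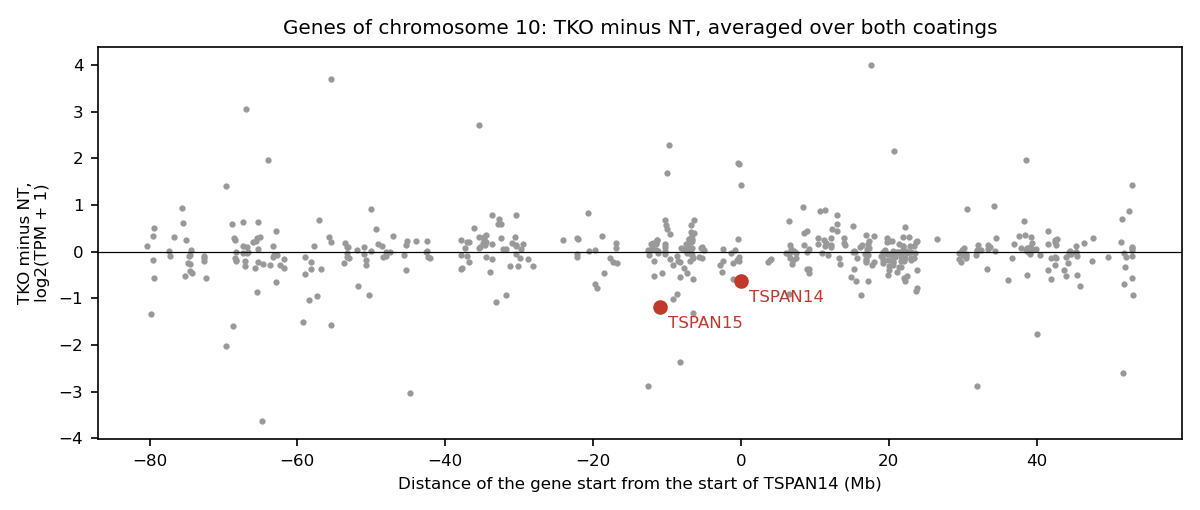
Difference of log2(TPM + 1) between TKO and NT cells, averaged over both coatings, for each tested gene of chromosome 10 against the distance of its start from that of TSPAN14 in Mb. Grey points are the 491 other genes and red points TSPAN14 (-0.62) and TSPAN15 (-1.19, 11.003 Mb away). The grey points between the pair lie on both sides of 0.

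The genes whose pattern over the 12 libraries was most like that of a called member were sought among 9554 tested genes with a mean of at least 5 TPM, as descriptions that rest on the same line and coating differences. For TSPAN14 they were GLI2 (Pearson's r 0.98), SH3KBP1 (0.97) and F2RL3 (0.97). For TSPAN15 they were YPEL5 (0.98), TEAD2 (0.97) and PPFIA3 (0.96). For TSPAN33 they were B4GALNT1 (0.99), KCNG1 (0.985) and P4HA2 (0.98).

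Other genes of the pathway were counted from 6 lists of textbook membership, which were chosen with earlier results of these data known. Counts are for the averaged difference between TKO and NT cells, where 21.2% of all genes tested were higher and 16.0% lower (median 0.03). Of 27 other tetraspanins 21 were tested, of which 9 were higher and 7 lower (median 0.08). TSPAN8, an epithelial tetraspanin, was at 0.468 and 0.417 TPM in NT cells on IgG and 24.5 and 12.1 in TKO cells on IgG (3.397 ± 0.27 averaged, limma adjusted p = 2.6e-06). In NKO cells TSPAN8 was at 2.33 and 4.31 TPM on IgG. TSPAN4, which organises migrasomes, rose by 1.08 ± 0.07 and ROM1, a photoreceptor tetraspanin, by 0.82 ± 0.10, while TSPAN11 fell by 1.30 ± 0.13. CD9, at 836 to 1580 TPM in NT libraries, rose by 0.36 ± 0.09, and CD82 fell by 0.61 ± 0.09 in TKO cells. CD9 was called on neither coating alone (limma adjusted p = 0.054 on IgG and 0.051 on DLL4). In NKO cells CD82 was lower than in NT cells by the average (-1.13 ± 0.09). CD9 was lower there as well (-0.28 ± 0.09, limma adjusted p = 0.034), a call that held under 8 of 17 settings and left-out libraries. TSPAN4, ROM1 and TSPAN11 were not called in NKO cells.

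Of 16 other ADAM genes 5 were tested, of which 1 was higher and 2 lower in TKO cells (median -0.24). ADAM15, which carries an integrin-binding site, was among the most abundant ADAM mRNAs at 190.0 to 244 TPM in NT libraries and rose by 0.38 ± 0.05 in TKO cells (limma adjusted p = 0.00016). ADAM19 fell by 1.15 ± 0.10 (adjusted p = 5.0e-06) and ADAM12 by 0.73 ± 0.19 (adjusted p = 0.011, and 0.051 with no filter). Both were called on DLL4 (-1.98, limma adjusted p = 2.4e-06, and -0.92, 0.026) and not on IgG (-0.33, 0.11, and -0.54, 0.17). In NKO cells the averaged differences from NT were 0.45 ± 0.05 for ADAM15 and -1.39 ± 0.10 for ADAM19, both called. ADAM12 was not called in NKO cells (0.32 ± 0.19, limma adjusted p = 0.23). Of 21 regulators of ADAM10 and ADAM17, 16 were tested, with 4 higher and 3 lower (median 0.05). TIMP1, a metalloprotease inhibitor that acts on ADAM10, went from 349 and 352 TPM in NT to 170 and 156 in TKO cells on IgG (-1.15 ± 0.05 averaged, limma adjusted p = 3.5e-08). TIMP2 rose by 0.65 ± 0.14. FURIN and PCSK5, convertases of the class that remove ADAM prodomains, fell by 0.45 ± 0.06 and 0.65 ± 0.13 in TKO cells. PCSK5 in TKO cells was called on DLL4 (-0.90, limma adjusted p = 0.0036) and not on IgG (-0.41, adjusted p = 0.13). Averaged over both coatings, NKO cells were also lower than NT in FURIN (-0.62 ± 0.06), PCSK5 (-0.97 ± 0.13) and TIMP1 (-0.27 ± 0.05). TIMP2 was not called in NKO cells (-0.33 ± 0.14, limma adjusted p = 0.11). RHBDF1, an iRhom named here after its values were seen, rose by 0.34 in TKO cells (limma adjusted p = 0.0074).

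The list named Notch cleavage machinery held 10 genes outside the members, all tested. It includes the cofactors NUMB, POFUT1 and POGLUT1 beside gamma-secretase. Of the 10 genes, 2 (PSEN2 and NUMB) were higher and 1 lower (median 0.00). PSEN2, a catalytic subunit of gamma-secretase, went from 9.42 and 7.80 TPM in NT to 18.2 and 18.3 in TKO cells on IgG (0.97 ± 0.10 averaged, limma adjusted p = 2.2e-05). NUMB, an inhibitor of Notch, rose by 0.79 ± 0.08 in TKO and by 0.69 ± 0.08 in NKO cells. FURIN, which also cleaves Notch receptors on their way to the surface, was the gene of that list that fell. NOTCH1 mRNA itself was at 17.8 and 19.6 TPM in NT and 17.02 and 22.2 in TKO cells on IgG (-0.12 ± 0.11 averaged, limma adjusted p = 0.47). In the NKO line, where it was targeted, NOTCH1 was at 19.2 and 15.59 TPM on IgG, overlapping NT (-0.10 ± 0.16, limma adjusted p = 0.72). On DLL4 NOTCH1 was at 16.54 and 19.5 TPM in NKO against 31.5 and 24.7 in NT cells (-0.61 ± 0.16, limma adjusted p = 0.023). That call was lost without NT DLL4 2 (limma adjusted p = 0.16) or NKO DLL4 1 (0.15), with no filter (0.075) and in a fit of the libraries compared alone (0.068). It held under 8 of the 13 settings and left-out libraries tried. Averaged over both coatings NOTCH1 differed by -0.36 ± 0.11 in NKO cells (limma adjusted p = 0.040), a call that held under 8 of 17. The mRNA of NOTCH1 thus did not separate NKO from NT cells on IgG, and no protein was measured.

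Of 73 substrates of ADAM10 or ADAM17, 47 were tested, with 13 higher and 10 lower in TKO cells (median -0.09). AXL, a receptor tyrosine kinase shed by these proteases, was at 0.133 and 0.180 TPM in NT cells on IgG and 96.6 and 131 in TKO cells (6.28 ± 0.20 averaged, limma adjusted p = 3.1e-09). AXL was at 36.2 and 57.4 TPM in NKO cells on IgG, also far from NT. Its relative MERTK rose by 2.24 ± 0.13 and APLP2, an APP relative, by 0.88 ± 0.07, and PVR, a nectin-like receptor, fell by 0.68 ± 0.06 in TKO cells. In NKO cells the averaged differences from NT were 1.71 ± 0.13 for MERTK and -0.52 ± 0.06 for PVR, which was not called on IgG alone. That of APLP2 in NKO cells was 0.21 ± 0.07 (limma adjusted p = 0.034), a call that held under 7 of 17 settings and left-out libraries. CDH2, the N-cadherin tied to TSPAN15 elsewhere and named here after its values were seen, went from 27.8 and 30.8 TPM in NT to 54.1 and 57.8 in TKO cells on IgG (0.82 averaged, limma adjusted p = 0.00013). Of 26 Notch target genes 22 were tested, and 6 were higher and 10 lower in TKO cells (median -0.30). HES1 fell by 1.33 ± 0.09, HES4 by 1.26 ± 0.13 and CDKN1A by 0.61 ± 0.06, and CCND1 (0.95 ± 0.09), DLL4 (0.91 ± 0.09), HEY2 (0.73 ± 0.08) and EFNB2 (0.60 ± 0.13) rose. By coating, HEY2 was 1.38 higher on IgG (limma adjusted p = 6.1e-06) and 0.08 on DLL4 (adjusted p = 0.65). EFNB2 was 1.07 higher on IgG (limma adjusted p = 0.0016) and 0.13 on DLL4 (adjusted p = 0.67). Its levels on IgG were low, at 0.274 and 0.344 TPM in NT and 1.92 and 1.59 in TKO cells. In NKO cells the averaged differences from NT were -0.67 for HES1, -2.87 for HES4 and -0.40 for CDKN1A. They were -0.92 for DLL4, -0.49 for HEY2, -1.91 for EFNB2 and 0.44 for CCND1. On IgG alone CDKN1A, DLL4, HEY2, EFNB2 and CCND1 were not called in NKO cells.

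**Figure D5:**
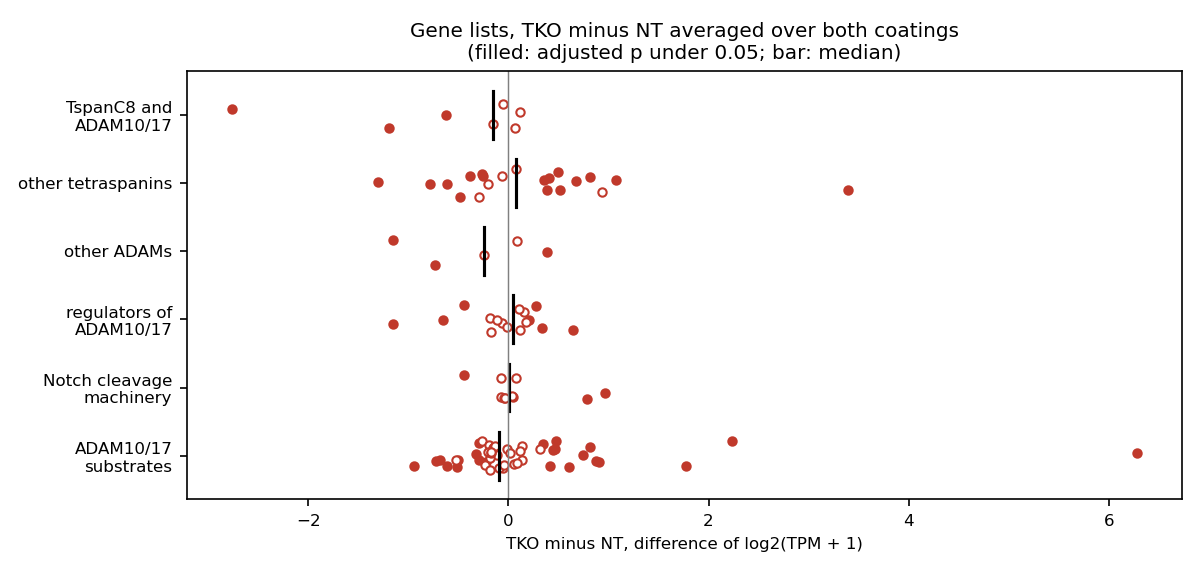
Difference of log2(TPM + 1) between TKO and NT cells, averaged over both coatings, for each tested gene of 6 groups: the 7 tested members and 5 of the lists of related genes. Filled points have an adjusted p under 0.05 and black bars are medians. Points lie on both sides of 0 in every group, with AXL at 6.28 and TSPAN8 at 3.397 farthest to the right and TSPAN33 at -2.76 farthest to the left.

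In NKO against NT cells the same lists had 3 higher and 6 lower tetraspanins (median -0.04), 1 and 2 other ADAM genes, 1 and 5 regulators, 2 and 1 machinery genes, 9 and 14 substrates and 2 and 15 Notch targets (median -0.47), where 15.6% of all genes were higher and 12.1% lower. In NT cells 7.68% of all genes tested were higher and 8.34% lower on DLL4 than on IgG (median 0.01). There DLL4 raised 2 of the 21 tetraspanins tested and lowered 1. CD9 (0.80 ± 0.12) and CD82 (0.76 ± 0.12) rose and TSPAN4 fell by 0.71 ± 0.11. Of the other ADAM genes, ADAM19 rose from 12.4 and 15.0 to 46.8 and 47.2 TPM (1.71 ± 0.14, limma adjusted p = 2.6e-05), and ADAM15 fell by 0.29 ± 0.07 (adjusted p = 0.024), a call lost without NT IgG 2 (0.081), NT IgG 3 (0.12) or NT DLL4 3 (0.16), with no variance trend (0.073) and in a fit of the libraries compared alone (0.075). Of the regulators 3 rose and 1 fell, with PCSK5 (0.84 ± 0.18), FRMD8, an iRhom partner (0.72 ± 0.16), and FURIN (0.40 ± 0.09) higher and MAD2L1, a mitotic checkpoint protein that binds ADAM17, lower (-0.36 ± 0.10, limma adjusted p = 0.031). Without NT DLL4 2 these lost their calls (adjusted p = 0.086, 0.085 and 0.083), as FRMD8 (0.097) and FURIN (0.087) did without NT IgG 2 and PCSK5 (0.094) without NT IgG 3. The FRMD8 call was also lost with no filter (limma adjusted p = 0.054), and in a fit of the libraries compared alone FRMD8 (0.065) and FURIN (0.084) both lost theirs. The call of MAD2L1 was lost without any 1 of the 4 NT libraries (limma adjusted p = 0.082 to 0.16), with no filter (0.062), with no variance trend (0.060) and in a fit of the libraries compared alone (0.067). Of the machinery genes 2 rose and none fell, FURIN and APH1B, a gamma-secretase subunit (0.46 ± 0.14, limma adjusted p = 0.049). The call of APH1B was lost without any 1 of the 4 NT libraries (limma adjusted p = 0.088 to 0.25), with no filter (0.10), with a pseudocount of 0.1 (0.0503), with no variance trend (0.055) and in a fit of the libraries compared alone (0.10). Of the 47 substrates tested 15 rose and 4 fell (median 0.24), and of the 22 Notch targets tested 14 rose and 4 fell (median 0.83).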

How the data were processed

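Polyadenylated RNA of 12 TeloHAEC libraries was measured, 2 for each of 3 lines on each of 2 coatings, starting from 140 ng of total RNA per the labels' protocols. The authors deposited TPM, 1 value per symbol and library. Per the submitters' processing notes the tools were kallisto and edgeR and the build was hg38; for versions, annotation and strand setting nothing is given in the sources used here. TPM summed to 974989 to 977130 per library. Depth is unknown, so precision rests on the spread between libraries within groups, pooled over the 6 groups in the fit. Columns named a group but not a labelled replicate, and were used as libraries of that group.

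The 13299 genes that reached 1 TPM in 2 or more libraries entered a limma fit of log2(TPM + 1) (limma 3.58.1, R 4.3.3): 1 mean per group over all 12 libraries, a variance trend, two-sided tests, Benjamini-Hochberg adjustment over all genes and a threshold of 0.05, for 12 contrasts. Residual degrees of freedom were 6 (10.8 after moderation). The fit was tested on simulated data. Errors are standard errors for differences and standard deviations (n = 2) for TPM.

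The members, the gene lists and the tests were chosen with earlier results of these data known. The rule names all 8 members, NOTCH1, of each list up to 4 called genes of smallest p in TKO against NT averaged over coatings and up to 2 more in DLL4 against IgG in NT cells, each reaching 5 TPM in some group mean, and the 3 genes most correlated with each called member. Alternatives were no filter, a filter on means under 5 TPM, a pseudocount of 0.1, quantile normalisation, rescaling by median of ratios, the library number as a block, no variance trend, only the libraries compared, leaving out each library, and, added after the data were seen, leaving out KPNA2P2 with rescaling and, for TSPAN33, a pseudocount of 0.01. Positions came from GENCODE 29 and upstream sequence from RefSeq (GRCh38.p14). Plots used matplotlib 3.10.9 (Python 3.11.15).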

Additional observations from a re-analysis of the deposited data

Results flagged for a closer look

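Some genes of the related lists responded to DLL4 differently in an edited line than in NT cells, by limma's test of the difference between the responses, and each of these comparisons uses the same 4 NT libraries. ADAM19, a metalloprotease of the ADAM10 family, was at 12.4 and 15.0 TPM on IgG and 46.8 and 47.2 on DLL4 in NT cells, 9.50 and 11.9 and then 11.5 and 10.9 in TKO cells, and 8.69 and 7.07 and then 10.04 and 11.2 in NKO cells. Its response was thus lower by -1.65 ± 0.20 in TKO (limma adjusted p = 0.0075) and by -1.32 ± 0.20 in NKO cells (adjusted p = 0.015). The TKO call of ADAM19 was lost without TKO DLL4 3 (adjusted p = 0.053), and the NKO call without NT IgG 2 (0.069), NT DLL4 2 (0.080), NT DLL4 3 (0.070), NKO IgG 1 (0.05002) or NKO DLL4 1 (0.069) and with no filter (0.053).

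Among the Notch target genes, the response of HEY2 differed by -1.30 ± 0.15 in TKO (limma adjusted p = 0.0075, and 0.053 without TKO DLL4 3) and by -1.65 ± 0.15 in NKO cells (adjusted p = 0.00084). That of HES1 differed by 1.43 ± 0.17 in TKO cells (limma adjusted p = 0.0075, 0.053 without TKO DLL4 3 and 0.050 without NT IgG 3). HES1 stood at 40.7 and 42.6 TPM on IgG and 81.15 and 78.9 on DLL4 in NT cells. In TKO cells HES1 was at 9.58 and 9.07 TPM on IgG and 50.3 and 53.6 on DLL4, below NT on both coatings. In NKO cells the responses of DLL4 (-1.95 ± 0.18, limma adjusted p = 0.00084), EFNB2 (-3.17 ± 0.27, adjusted p = 0.00040), HES4 (-1.79 ± 0.27, adjusted p = 0.013) and CDKN1A (-0.65 ± 0.12, adjusted p = 0.043) were lower. EFNB2 was nearly absent from NKO cells, at 0.0262 and 0.0660 TPM on IgG and 0.0159 and 0.131 on DLL4. In NT cells EFNB2 was at 0.274 and 0.344 TPM on IgG and 11.8 and 10.4 on DLL4. The HES4 call was lost with a pseudocount of 0.1 (adjusted p = 0.18), with no filter (0.064), in the fit of only the libraries compared (0.052) and without NT IgG 2 (0.069), NT DLL4 2 (0.084) or NKO DLL4 1 (0.054). The CDKN1A call was lost without NT IgG 2 (0.14), NT IgG 3 (0.13), NT DLL4 2 (0.18), NT DLL4 3 (0.12), NKO IgG 2 (0.090) or NKO DLL4 1 (0.16) and in 4 other settings (0.087 to 0.12). None of the TspanC8 genes tested, nor ADAM10 or ADAM17, differed in response by this test.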

How the results depend on the processing

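Of 1232 values of the 7 tested genes under alternatives, 1177 stayed called or stayed not called, 40 lost and 15 gained a call. None was called in opposite directions. Among the 1177 were 48 that changed sign while not called in either fit. The number of genes called changed as follows. With no filter it was 1 for NKO against NT on DLL4, 2 averaged, 2 for TKO against NKO and 0 for DLL4 in NT and in TKO cells. Keeping means of 5 TPM or more, which drops TSPAN33, it fell by 1 in each comparison of lines (to 0 for NKO against NT on IgG). With median-of-ratios rescaling it was 4 for NKO against NT averaged, 2 for TKO against NKO and 2 for DLL4 in NT cells. With quantile normalisation it was 4 for TKO against NT on DLL4 and averaged, 4 for NKO against NT averaged, 5 for TKO against NKO and 2 for DLL4 in NT and in TKO cells. With no variance trend it was 2 for NKO against NT averaged and for TKO against NKO and 0 for DLL4 in NT and in TKO cells. In fits of the libraries compared alone it was 2 for NKO against NT on DLL4 and averaged and for TKO against NKO, and 0 for DLL4 in TKO cells. The cause of these changes was not tested.

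With each library left out in turn, the count was 3 to 4 for TKO against NT on IgG, 3 on DLL4 and 3 averaged. It was 1 to 2 for NKO against NT on IgG, 1 to 3 on DLL4 and 2 to 3 averaged, 2 to 5 for TKO against NKO, 0 for DLL4 in NT and 0 to 1 in TKO cells. With the library number as a replicate block it was 1 for NKO against NT on DLL4 and averaged (limma adjusted p of TSPAN15 0.067 and 0.077, and of TSPAN5 0.10 and 0.35), and the block changed no other count. The numbers did not pair the libraries: the differences between libraries of a group correlated at -0.04 to 0.28 over 7 pairs of groups, above 0.1 in 1. The TspanC8 sum of TKO cells was 65.0% of NT, 63.2% with median-of-ratios rescaling, 63.6% with quantile normalisation and 65.7% without KPNA2P2. The unknown depth limits TSPAN33 in TKO cells and TSPAN10 most.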
